A study of Mus musculus with 9 samples.

Results

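The meningeal fibroblast matrix and transporter genes are a list of 38 genes for the proteins that fibroblasts of the brain coverings lay down around themselves, export, carry on their surface or use as membrane transporters, together with 4 of their transcription factors. A gene counted as measured where a probe set carried its symbol and no other in the platform annotation, and where a gene had several, the brightest one on average over the 9 arrays, on the log2 scale, was used. Of the 38, 35 were measured, among 19147 genes in all, and Col6a3, Mfap5 and Serpinf1 were not analysed here. The 35 comprised 24 genes of the extracellular matrix and 11 others, namely 2 secreted proteins, 1 cell surface protein, 4 transcription factors and 4 transporters.

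The meninges wrap the brain in layers of fibroblasts that rest on the outer basement membrane. Their fibroblasts deposit fibrillar collagens with small leucine-rich proteoglycans that shape the fibrils, express forkhead factors such as Foxc1, and carry organic anion and amino acid transporters that clear solutes from the cerebrospinal fluid. Over the developing cerebellum they adjoin the external layer of granule neuron precursors, and mouse Foxc1, acting from this mesenchyme, is needed for normal growth of the cerebellum.

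Total RNA came from C57BL/6 mice at postnatal day 5, from cerebellum by the design text and from brain by the labels, and each sample was hybridised to 1 array. There were 3 groups of 3. SmoA2 mutants carried a transgene for an activated Smoothened, the transducer of Sonic hedgehog signals, under a Neurod2 promoter fragment that the design text calls specific to granule neuron precursors. Smo/Smo mutants were taken as the line with the SmoA1 transgene under the same kind of promoter fragment, by elimination, since the labels name no SmoA1, and Wildtype mice were of the same age. The codes of the SmoA2 and Wildtype animals share a prefix that those of the Smo/Smo animals do not have. The labels do not say what it stands for. For Smo/Smo mutants whatever the prefix marks and the genotype cannot be told apart. Arrays have no read depth, and it is the number of arrays that limits precision. Each array is a separate animal by its code, and p-values measure the spread between these 9 animals.

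The median array intensity lay between 91 and 95.1, so differences are on a nearly common scale. Probe sets of the Y-linked genes Eif2s3y, Kdm5d and Uty in the 4 females gave log2 values of 2.23 to 5.57, with a median of 3.01, which is the background used below. The 10 measured genes of the cerebellum list averaged 11.16 to 11.33 in SmoA2 mutants, 11.30 to 11.35 in Smo/Smo mutants and 11.26 to 11.28 in Wildtype. Of that list Atoh1, a granule precursor transcription factor, was higher in SmoA2 mutants than in Wildtype (0.82 ± 0.07, adjusted p = 0.000703) and Pcp2, a Purkinje cell protein, was lower (-0.61 ± 0.10, adjusted p = 0.0143), and both were called likewise against Smo/Smo mutants (0.70 and -0.65, adjusted p = 0.00189 and 0.012). The single Smo probe set passed no test (-0.17 in SmoA2 mutants and -0.03 in Smo/Smo mutants, each against Wildtype), and whether it matches the transgenes is not known. Wildtype replicate 3 stood apart in the choroid plexus list of 11 genes, with a mean of 6.26 against 8.54 and 8.45 in the other Wildtype arrays. Calls against Wildtype of the members and of that list are given with and without that array.

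The members lay lower in SmoA2 mutants than in Wildtype. In SmoA2 mutants 12 of 35 members were called lower and 1 higher at an adjusted p under 0.05, where 1.73% and 0.961% of all genes were. The 12 were Slc22a6, Msln, Slc6a13, Tbx18, Lox, Fmod, Col1a2, Foxc1, Itih2, Col1a1, Ptgds and Foxd1, and the 1 was Fbln2. The median log2 difference over the 35 was -0.34, beside 0.01 over all genes, and 30 members had a difference below 0, as did 47.9% of all genes. In 23 members every SmoA2 array lay below every Wildtype array, as in 10.2% of genes, in 3 every SmoA2 array lay above, as in 8.89%, and in 9 the groups overlapped. Against Smo/Smo mutants, 7 members were lower in SmoA2 mutants and 0 higher, beside 1.54% and 1.02% of all genes. Between Smo/Smo mutants and Wildtype 1 member was called higher, Fbln2, and 0 lower, beside 0.214% and 0.157% of all genes. Every Smo/Smo array lay below every Wildtype array in 10 members, as in 8.12% of genes, and above in 5, as in 7.82%. In bulk tissue a smaller share of fibroblasts in the sample and less RNA of these genes per fibroblast cannot be told apart. What would lie behind either was not tested.

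**Figure D1:**
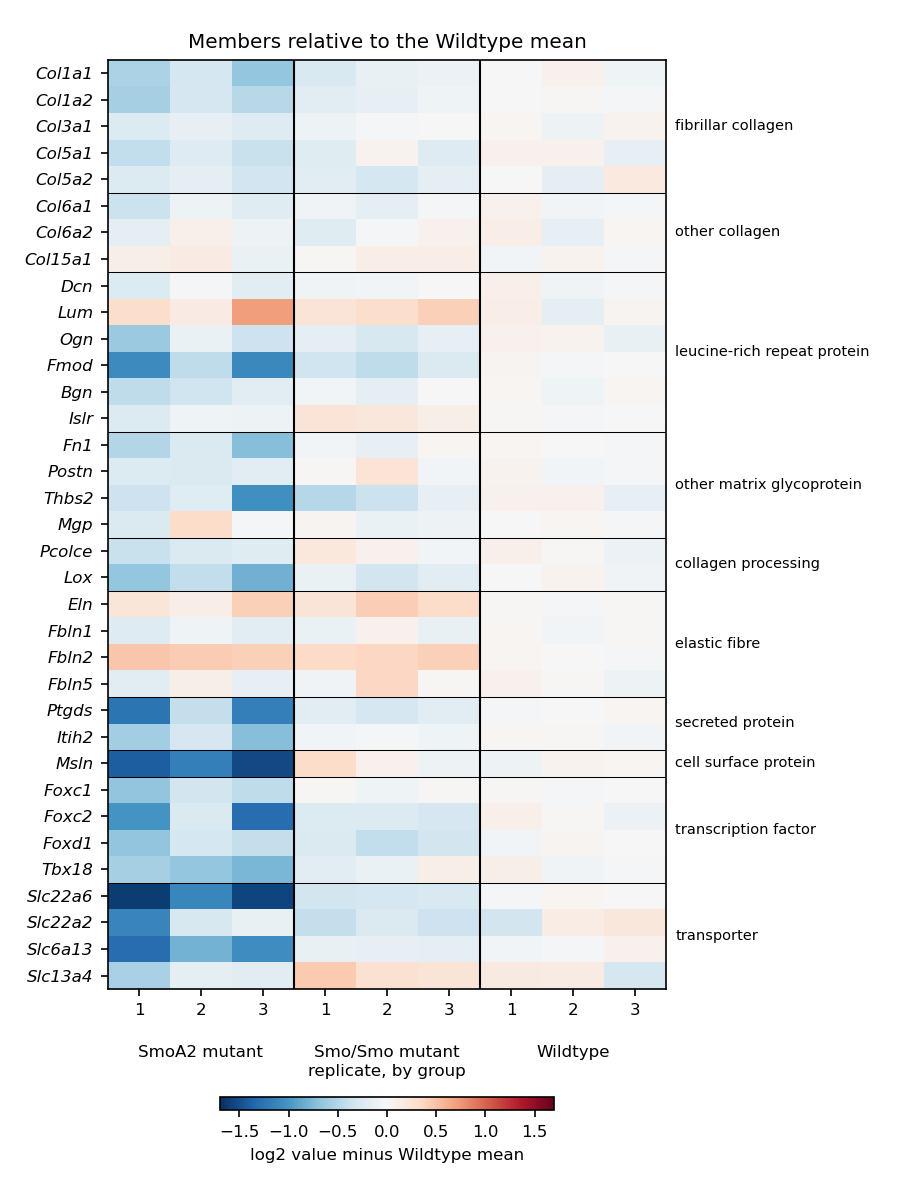
Each row is a member and each column an array. Colour gives the log2 value minus the mean of the 3 Wildtype arrays, blue below and red above, with genes grouped by role. SmoA2 arrays are blue in most rows, deepest for Slc22a6 and Msln, Smo/Smo arrays are close to white, and Fbln2 is red in both mutants.

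Of the 4 transporters 2 were called lower in SmoA2 mutants, against Wildtype and against Smo/Smo mutants. Slc22a6, organic anion transporter 1, measured 7.99, 8.50 and 8.04 in SmoA2 mutants and 9.29, 9.31 and 9.34 in Smo/Smo mutants, against 9.57, 9.63 and 9.61 in Wildtype. The 3 groups did not overlap, and the SD was 0.28 in SmoA2 mutants, 0.02 in Smo/Smo mutants and 0.03 in Wildtype. It was 2.68-fold lower in SmoA2 mutants than in Wildtype (-1.42 ± 0.12 on the log2 scale, SE, adjusted p = 0.000437) and 2.20-fold lower than in Smo/Smo mutants (-1.13 ± 0.12, adjusted p = 0.00186). Slc6a13, a transporter of GABA and taurine that lies in the leptomeninges of the rodent brain, measured 8.47, 8.97 and 8.72 in SmoA2 mutants and 9.65, 9.63 and 9.60 in Smo/Smo mutants, against 9.72, 9.75 and 9.84 in Wildtype. All SmoA2 arrays were below all others, 2.07-fold lower than Wildtype (-1.05 ± 0.11, adjusted p = 0.00149) and 1.87-fold lower than Smo/Smo mutants (-0.91 ± 0.11, adjusted p = 0.0038).

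The sulfate transporter Slc13a4 passed no test at 8.48, 8.87 and 8.85 in SmoA2 mutants and 9.47, 9.28 and 9.25 in Smo/Smo mutants, against 9.18, 9.16 and 8.74 in Wildtype. Its lowest Wildtype value is in replicate 3. The difference between SmoA2 mutants and Wildtype was -0.29 with all arrays and -0.44 without that array (adjusted p = 0.385 and 0.156). Between SmoA2 and Smo/Smo mutants it was -0.60 either way, with an adjusted p of 0.0652 over all arrays and 0.0411 without it. Slc22a2, organic cation transporter 2, lay near the background at 4.89 to 5.88 in SmoA2 mutants, 5.60 to 5.76 in Smo/Smo mutants and 5.69 to 6.20 in Wildtype, and passed no test.

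All 4 transcription factors had lower means in SmoA2 mutants than in Wildtype, and 3 passed the test. Tbx18, a T-box factor of mesenchyme and of mural cells, measured 7.65, 7.55 and 7.44 in SmoA2 mutants and 8.03, 8.10 and 8.31 in Smo/Smo mutants, against 8.31, 8.15 and 8.18 in Wildtype. SmoA2 arrays were below all others, by -0.66 ± 0.09 against Wildtype (adjusted p = 0.00585) and by -0.60 ± 0.09 against Smo/Smo mutants (adjusted p = 0.0111), while the other groups overlapped. Foxc1 measured 8.71, 9.07 and 8.94 in SmoA2 mutants and 9.40, 9.31 and 9.40 in Smo/Smo mutants, against 9.39, 9.36 and 9.38 in Wildtype. The difference was -0.47 ± 0.09 against Wildtype (adjusted p = 0.0231) and -0.47 ± 0.09 against Smo/Smo mutants (adjusted p = 0.0278), and Smo/Smo mutants differed from Wildtype by -0.01 (95% interval -0.20 to 0.19).

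Foxd1, another forkhead factor of mesenchyme, measured 6.61, 6.98 and 6.88 in SmoA2 mutants and 7.03, 6.86 and 6.97 in Smo/Smo mutants, against 7.24, 7.32 and 7.28 in Wildtype. Here both mutants lay below every Wildtype array and overlapped each other. The call was made only in SmoA2 mutants (-0.46 ± 0.09, adjusted p = 0.0387, against -0.33 ± 0.09, adjusted p = 0.295, in Smo/Smo mutants), and between the mutants the difference was -0.13 (95% interval -0.34 to 0.08). Foxc2, the close relative of Foxc1, differed by -0.86 ± 0.22 in SmoA2 mutants against Wildtype and missed the threshold (adjusted p = 0.0812). Its SmoA2 replicate 2, at 9.31, lay within the Smo/Smo range, while replicates 1 and 3 were at 8.54 and 8.26. Of 9 fits without 1 array it was called only in that without replicate 2 (-1.16, adjusted p = 0.000783, up to 0.227 in the others). That fit drops the array nearest to the other groups, so no call is drawn from it.

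**Figure D2:**
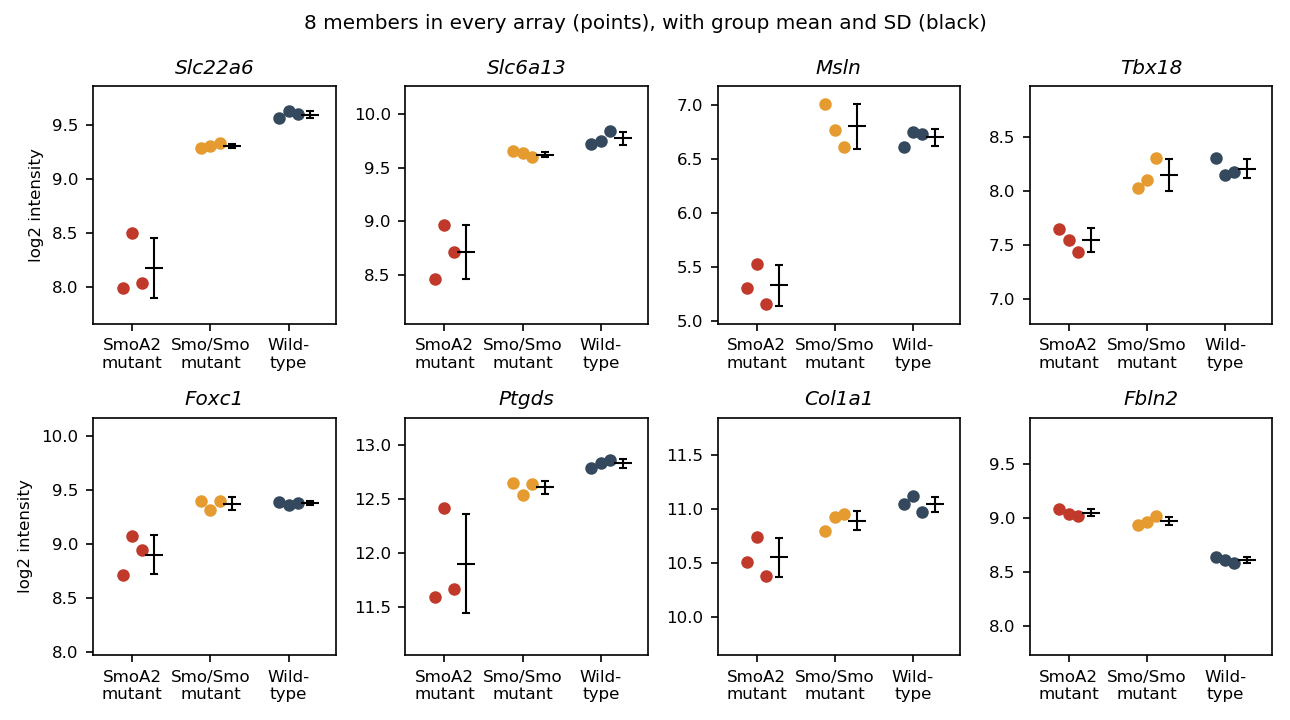
Points are arrays, as log2 intensity, for 8 members, with the group mean and SD in black and axes of equal span. SmoA2 arrays lie below the other groups for Slc22a6, Slc6a13, Msln, Tbx18, Foxc1, Ptgds and Col1a1, and both mutants lie above Wildtype for Fbln2.

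The promoters of 5 members are shown, the 2 transporters and 2 transcription factors that were lower in SmoA2 mutants against both other groups and had an entry, and Fbln2, which was higher. Each is the 250 bases before a transcript start, from RefSeq on GRCm38.p6, 5′ to 3′ on the gene's strand. Capitals mark CCAAT or ATTGG, the CCAAT box on either strand, and GGGCGG or CCGCCC, the GC box. Slc22a6 lies at chr19:8617746-8617995 (plus strand), Slc6a13 at chr6:121300490-121300739 (plus), Tbx18 at chr9:87731261-87731510 (minus), Foxc1 at chr13:31806396-31806645 (plus) and Fbln2 at chr6:91212514-91212763 (plus).
Slc22a6 promoter: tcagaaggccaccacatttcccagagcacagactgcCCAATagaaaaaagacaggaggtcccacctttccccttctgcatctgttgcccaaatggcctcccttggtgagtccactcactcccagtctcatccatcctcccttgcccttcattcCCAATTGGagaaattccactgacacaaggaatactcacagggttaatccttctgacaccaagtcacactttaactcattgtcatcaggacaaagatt
Slc6a13 promoter: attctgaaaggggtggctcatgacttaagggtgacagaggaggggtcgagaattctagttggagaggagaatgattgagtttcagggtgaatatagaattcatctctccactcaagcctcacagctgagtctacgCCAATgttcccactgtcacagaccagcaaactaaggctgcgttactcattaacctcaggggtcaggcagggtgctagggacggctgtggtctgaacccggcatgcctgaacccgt
Tbx18 promoter: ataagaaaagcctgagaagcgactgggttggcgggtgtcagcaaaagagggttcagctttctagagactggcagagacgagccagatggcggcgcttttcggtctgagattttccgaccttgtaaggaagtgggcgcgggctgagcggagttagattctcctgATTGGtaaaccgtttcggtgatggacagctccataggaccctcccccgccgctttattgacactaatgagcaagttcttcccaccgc
Foxc1 promoter: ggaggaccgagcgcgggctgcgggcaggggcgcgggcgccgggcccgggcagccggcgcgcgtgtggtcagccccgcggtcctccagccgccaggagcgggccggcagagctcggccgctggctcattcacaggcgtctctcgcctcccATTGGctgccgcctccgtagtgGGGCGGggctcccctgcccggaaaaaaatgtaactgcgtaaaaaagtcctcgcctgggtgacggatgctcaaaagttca
Fbln2 promoter: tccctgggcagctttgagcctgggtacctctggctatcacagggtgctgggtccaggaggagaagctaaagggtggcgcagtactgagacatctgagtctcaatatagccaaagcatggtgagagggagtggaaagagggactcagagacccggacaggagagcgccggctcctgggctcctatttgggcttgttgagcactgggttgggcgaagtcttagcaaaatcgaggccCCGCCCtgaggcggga
Slc6a13 has 3 promoter entries, and the one printed was chosen after the motifs were seen, as the only 1 of them with a CCAAT box. Of the other entries 1 has 2 GC boxes and 1 has neither motif. In Slc22a6 the palindrome at the middle reads as a CCAAT box on both strands, overlapping by 2 bases, and a further box lies upstream. The 4 transporters and the 3 transcription factors with an entry, Foxc1, Foxd1 and Tbx18, each had a CCAAT box in a promoter, and Foxc2 had no entry. Over the members with an entry, 25 genes with 31 promoters, a CCAAT box was in 10 promoters (32.3%, against 33.8% of all 32851 promoters of this length). A GC box was in 13 (41.9% against 32.7%), TATAAA in 4 (12.9% against 12.4%), the forkhead motif TGTTTAC in 1, that of Col6a1 (3.23% against 3.17%), and the Gli motif TGGGTGGTC in 0 (against 0.225%), all counted on both strands. A match is a description of the letters in the window.

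Both measured secreted proteins and the cell surface protein were lower in SmoA2 mutants. Ptgds, the lipocalin-type prostaglandin D synthase that meningeal fibroblasts and choroid plexus release into cerebrospinal fluid, measured 11.59, 12.42 and 11.67 in SmoA2 mutants and 12.65, 12.54 and 12.64 in Smo/Smo mutants, against 12.79, 12.83 and 12.86 in Wildtype. SmoA2 replicate 2 lay just under the Smo/Smo arrays and replicates 1 and 3 far below them. The difference was -0.93 ± 0.18 against Wildtype (adjusted p = 0.0324) and -0.71 ± 0.18 against Smo/Smo mutants, which missed the threshold (adjusted p = 0.0895). Of 9 fits without 1 array the latter passed only without SmoA2 replicate 2 (-0.98, adjusted p = 0.000564, up to 0.237 in the others). That array is the nearest to the Smo/Smo arrays, so no call is drawn from the fit without it. Itih2, a heavy chain of the inter-alpha-trypsin inhibitors that bind hyaluronan, measured 7.71, 8.02 and 7.58 in SmoA2 mutants and 8.26, 8.29 and 8.23 in Smo/Smo mutants, against 8.33, 8.32 and 8.26 in Wildtype. No SmoA2 array reached any other, with a difference of -0.53 ± 0.10 against Wildtype (adjusted p = 0.0252) and -0.49 ± 0.10 against Smo/Smo mutants (adjusted p = 0.0397).

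Msln, mesothelin, a lipid-anchored surface protein of mesothelium, measured 5.30, 5.53 and 5.16 in SmoA2 mutants and 7.01, 6.77 and 6.61 in Smo/Smo mutants, against 6.61, 6.75 and 6.73 in Wildtype. The SmoA2 values lay within the background range, near its upper end, so the estimates may understate the differences. Msln was at least 2.57-fold lower than in Wildtype (-1.36 ± 0.12, adjusted p = 0.000654) and at least 2.76-fold lower than in Smo/Smo mutants (-1.46 ± 0.12, adjusted p = 0.000663), and Smo/Smo mutants and Wildtype overlapped.

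The 24 matrix genes had a median difference between SmoA2 mutants and Wildtype of -0.22, with 4 called lower and 1 higher, and the 11 other members one of -0.66, with 8 called lower, which is a description with no test between the sets. Among the 5 fibrillar collagens all differences were below 0, with a median of -0.34, and 2 passed. Col1a1, the main chain of type I collagen, measured 10.51, 10.74 and 10.38 in SmoA2 mutants and 10.79, 10.92 and 10.95 in Smo/Smo mutants, against 11.04, 11.12 and 10.97 in Wildtype, and Col1a2, the second chain of that trimer, 10.17, 10.46 and 10.27 in SmoA2 mutants and 10.55, 10.60 and 10.67 in Smo/Smo mutants, against 10.74, 10.76 and 10.72 in Wildtype. The paired chains moved by like amounts, -0.50 ± 0.10 for Col1a1 (adjusted p = 0.0293) and -0.44 ± 0.08 for Col1a2 (adjusted p = 0.0201), and neither passed against Smo/Smo mutants (-0.34 and -0.31, adjusted p = 0.115 and 0.0855).

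Col3a1, the type III chain, measured 12.01, 12.10 and 12.03 in SmoA2 mutants and 12.16, 12.23 and 12.24 in Smo/Smo mutants, against 12.27, 12.16 and 12.30 in Wildtype. The SmoA2 arrays lay below all others by a small amount that missed the threshold (-0.20 ± 0.06 against Wildtype, 95% interval -0.33 to -0.06, adjusted p = 0.152). Col5a1 and Col5a2, which nucleate fibrils, differed by -0.34 and -0.23 and passed no test. The non-fibrillar chains Col6a1, Col6a2 and Col15a1 differed by -0.21, -0.05 and 0.04, also with no call.

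Of the 6 leucine-rich repeat proteins 1 was called lower against Wildtype. Fmod, fibromodulin, which binds type I collagen fibrils, measured 7.33, 7.97 and 7.31 in SmoA2 mutants and 8.07, 7.98 and 8.16 in Smo/Smo mutants, against 8.45, 8.37 and 8.40 in Wildtype. SmoA2 replicate 2 lay just under the lowest Smo/Smo array, and the difference was -0.87 ± 0.16 against Wildtype (adjusted p = 0.0201) and -0.53 ± 0.16 against Smo/Smo mutants (adjusted p = 0.132). Dcn, decorin, the best known proteoglycan of this family, measured 10.84, 11.05 and 10.89 in SmoA2 mutants and 11.01, 11.02 and 11.06 in Smo/Smo mutants, against 11.15, 11.01 and 11.05 in Wildtype. The groups overlapped, and the 95% interval of the difference between SmoA2 mutants and Wildtype was -0.30 to 0.01. That of Col1a2, -0.62 to -0.26, overlaps it, and the genes were not tested against each other. Islr, a secreted leucine-rich repeat protein of mesenchymal stromal cells, measured 9.73, 9.89 and 9.88 in SmoA2 mutants and 10.18, 10.16 and 10.06 in Smo/Smo mutants, against 9.99, 9.95 and 9.96 in Wildtype. Its Smo/Smo arrays were the highest, and it was called lower in SmoA2 mutants against Smo/Smo mutants alone (-0.30 ± 0.06, adjusted p = 0.0474, against -0.13 ± 0.06, adjusted p = 0.389, relative to Wildtype). Bgn and Ogn, biglycan and osteoglycin, differed from Wildtype in SmoA2 mutants by -0.32 and -0.37 (adjusted p = 0.0765 and 0.181), and Lum, lumican, by 0.38 (adjusted p = 0.22).

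The 2 collagen processing genes and the 4 other glycoproteins gave 1 call. Lox, lysyl oxidase, which crosslinks collagen and elastin, measured 7.33, 7.57 and 7.17 in SmoA2 mutants and 7.88, 7.68 and 7.80 in Smo/Smo mutants, against 7.99, 8.05 and 7.94 in Wildtype. The 3 groups did not overlap, and the difference was -0.64 ± 0.10 against Wildtype (adjusted p = 0.0122) and -0.43 ± 0.10 against Smo/Smo mutants (adjusted p = 0.0647). Pcolce, which speeds the removal of the procollagen C-propeptide, differed by -0.28 against Wildtype and by -0.35 against Smo/Smo mutants (adjusted p = 0.126 and 0.0592). Among the glycoproteins, fibronectin (Fn1) came nearest to the threshold at -0.49 ± 0.11 against Wildtype (adjusted p = 0.0545), and thrombospondin 2 (Thbs2), periostin (Postn) and matrix Gla protein (Mgp) differed by -0.53, -0.22 and 0.01.

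Of the 4 elastic fibre genes 1 was called higher and 0 lower, with a median difference of 0.08 between SmoA2 mutants and Wildtype. Fbln2, fibulin-2, a glycoprotein of basement membranes and elastic fibres, measured 9.08, 9.04 and 9.02 in SmoA2 mutants and 8.93, 8.96 and 9.02 in Smo/Smo mutants, against 8.64, 8.61 and 8.58 in Wildtype. Every mutant array lay above every Wildtype array. It was higher in SmoA2 mutants (0.44 ± 0.05, adjusted p = 0.00335) and in Smo/Smo mutants (0.36 ± 0.05, adjusted p = 0.0275), and between the mutants the difference was 0.08 (95% interval -0.04 to 0.20). Eln, elastin, passed no test, with every SmoA2 array (10.65, 10.56 and 10.85) and every Smo/Smo array (10.67, 10.86 and 10.76) above Wildtype (10.46, 10.41 and 10.47) and differences of 0.24 and 0.32 (adjusted p = 0.207 and 0.247). Fbln1 and Fbln5 differed from Wildtype by -0.16 and -0.07 in SmoA2 mutants, with no call.

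**Figure D3:**
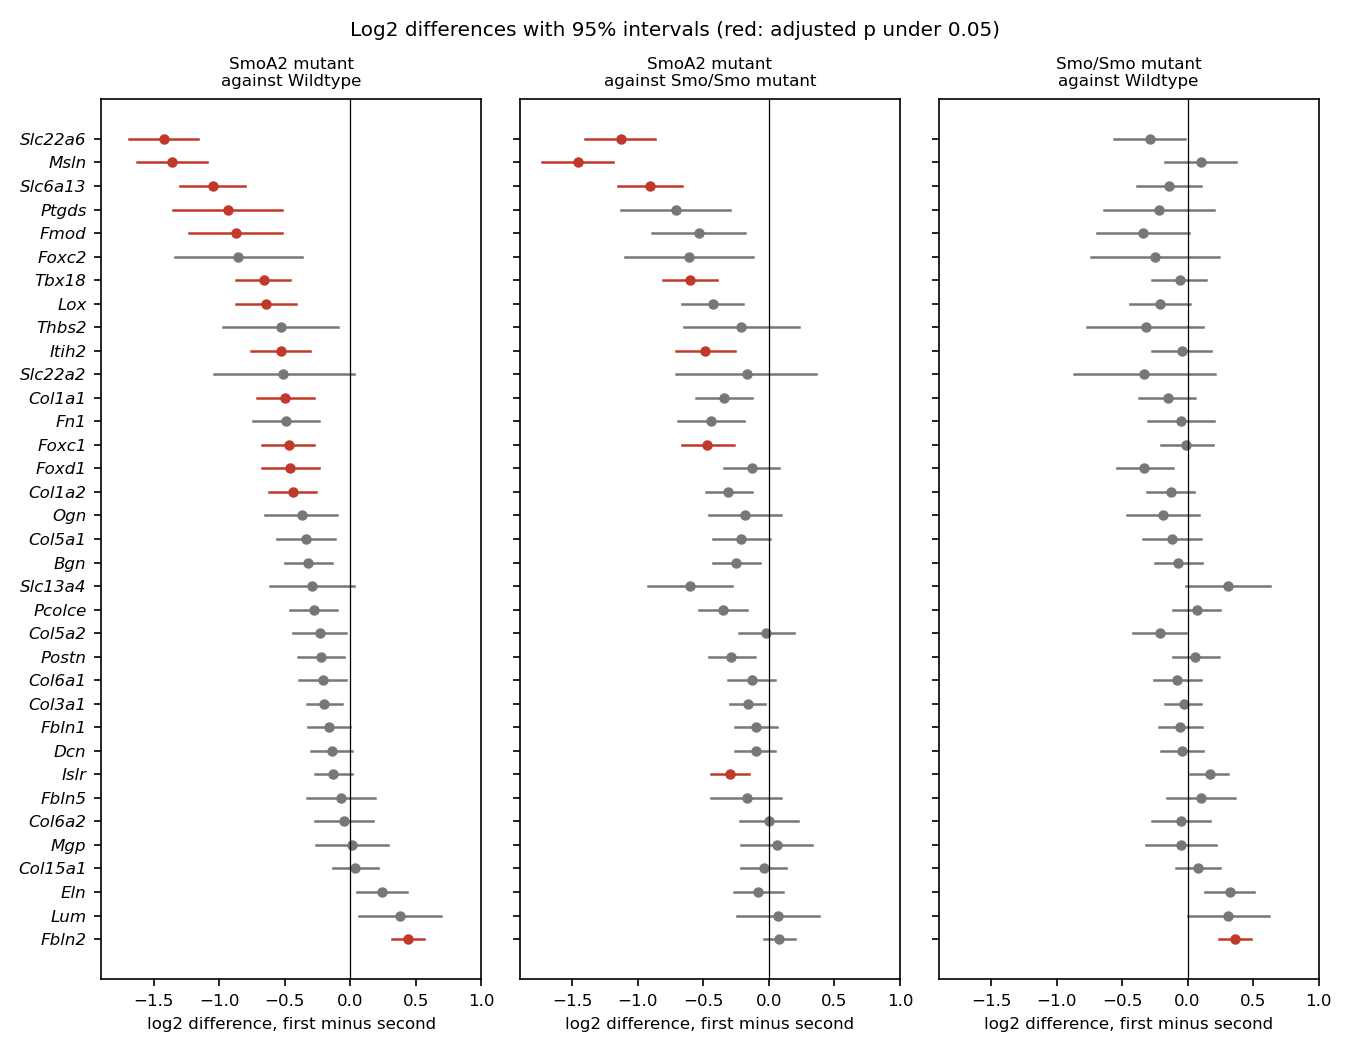
Points are log2 differences with 95% intervals for all 35 members in the 3 comparisons, ordered by the difference between SmoA2 mutants and Wildtype, with calls at an adjusted p under 0.05 in red. Calls to the left of 0 number 12 for SmoA2 mutants against Wildtype, 7 against Smo/Smo mutants and 0 for Smo/Smo mutants against Wildtype.

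Both mutant lines were set against the same 3 Wildtype arrays, so their differences share those values, and the direct comparison of SmoA2 with Smo/Smo mutants does not use the Wildtype means. In that comparison Msln, Slc22a6, Slc6a13, Tbx18, Foxc1, Itih2 and Islr were lower in SmoA2 mutants, and the median over the members was -0.25, beside 0.00 over all genes, with 31 differences below 0 (51.1% of genes). The groups did not overlap in 18 members with SmoA2 lower, as in 10.1% of genes, and in 1 with SmoA2 higher, as in 8.12%. The first 6 of those 7 were also called lower against Wildtype. For Smo/Smo mutants against Wildtype the median was -0.06, with 25 differences below 0 (47.8% of genes) and with 1 member called higher and 0 lower in limma at an adjusted p under 0.05 (0.214% and 0.157% of genes). Every Smo/Smo array lay below every Wildtype array in 10 members and above in 5 (8.12% and 7.82% of genes). At an unadjusted p under 0.05, 7 members differed between Smo/Smo mutants and Wildtype (8.77% of genes), 26 between SmoA2 mutants and Wildtype (14.8%) and 19 between the mutants (14.3%). A moderated F test over the 3 groups called 10 members, beside 2.89% of genes. In 23 members the means were ordered with SmoA2 mutants lowest, Smo/Smo mutants between and Wildtype highest, an order found in 18.8% of genes, and the reverse order held in 2 members and 19.9% of genes.

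Over the members, SmoA2 replicate 2 lay nearer to the other groups than replicates 1 and 3. It was the highest SmoA2 array in 27 of 35 members, beside 31.0% of all genes, and in 11 of the 12 called lower, whereas replicate 1 was the highest in 2 members (29.7% of genes) and replicate 3 in 6 (39.2%). The median member differed from the Wildtype mean by -0.44, -0.24 and -0.32 in SmoA2 replicates 1, 2 and 3 and by -0.08, -0.11 and -0.07 in the Smo/Smo replicates. Over the 12 called members the same medians were -0.67, -0.41 and -0.80 in SmoA2 mutants and -0.18, -0.14 and -0.13 in Smo/Smo mutants. These 12 were selected as lower in SmoA2 mutants on the same arrays and against the same Wildtype mean. Their larger fall in SmoA2 mutants follows from that selection, and their Smo/Smo values share the Wildtype mean used in it. The medians of all genes stayed within 0.01 of the Wildtype mean on every array.

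The calls on Slc22a6, Msln, Slc6a13, Tbx18 and Fbln2 between SmoA2 mutants and Wildtype held in each of 9 fits that left out 1 array, with the highest adjusted p for Tbx18, at 0.0305. The other 8 lost their call in some of these fits. Lox lost it without Wildtype replicate 1 or 2 or SmoA2 replicate 1 (adjusted p up to 0.0594). Foxc1 lost it without any 1 Wildtype array or SmoA2 replicate 3 (up to 0.0929), and Fmod, Col1a2 and Itih2 without any of those or SmoA2 replicate 1 (up to 0.0803, 0.0816 and 0.102). Col1a1 lost its call without any 1 Wildtype array, SmoA2 replicate 1 or 3 or Smo/Smo replicate 2 or 3 (up to 0.112), and Ptgds and Foxd1 without any array but SmoA2 replicate 2 (up to 0.107 and 0.129). Without SmoA2 replicate 2, 14 members were called lower, Fn1 (adjusted p = 0.0103) and Foxc2 (0.000783) being added, and the count was 4 without Wildtype replicate 1 or 2, 5 without Wildtype replicate 3 or SmoA2 replicate 1, and 6 without SmoA2 replicate 3. In a fit of the SmoA2 and Wildtype arrays alone 5 stayed called lower, Slc22a6, Msln, Slc6a13, Tbx18 and Lox. With sex as a covariate Itih2 and Foxd1 just missed the threshold (0.051 and 0.0515), and without Wildtype and SmoA2 replicates 3 together Tbx18 did (0.0602).

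Between the mutants the calls on Slc22a6, Msln, Slc6a13 and Tbx18 held in all 9 of these fits, Foxc1 in 3 (without Wildtype replicate 3, SmoA2 replicate 1 or SmoA2 replicate 2, up to 0.102 in the others), Itih2 in 1 (without SmoA2 replicate 2, up to 0.139 in the others) and Islr in 0 (0.0615 to 0.172). The 7 members lower in SmoA2 mutants became 13 without SmoA2 replicate 2 and 4 without Wildtype replicate 1 or 2, SmoA2 replicate 3 or any 1 Smo/Smo array. Fbln2 in Smo/Smo mutants against Wildtype held in 1, without SmoA2 replicate 3 (0.0388, and up to 0.138 in the others). The counts of members in these fits, here and against Wildtype, stand without the share of all genes called in the same fit.

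For 7 members other probe sets of the same symbol could be read in a fit of all probe sets. The other Lox probe set gave -0.61 in SmoA2 mutants against Wildtype, close to the -0.64 of the first, without a call (adjusted p = 0.154). The other Thbs2 probe set gave -0.44 ± 0.07 with a call (adjusted p = 0.0108), where the one used missed it at -0.53 ± 0.19 (adjusted p = 0.248 in this fit). Fn1 (-0.27) and Col3a1 (-0.14) had the sign of the probe set used and no call, 1 other Fbln5 probe set gave -0.07. The other Postn probe set, a further one of Fbln5 and both others of Col5a2 lay within or at the edge of the background range, so no difference is given for them. With a gene's probe sets averaged, Lox missed the threshold (adjusted p = 0.0527) and Thbs2 passed it (adjusted p = 0.039).

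Several members are neighbours on the chromosome, namely Col3a1 and Col5a2, Col6a1 and Col6a2, and Dcn and Lum, among the measured genes in the order of GRCm38.p6. The 64 neighbours that are no members had a median difference of 0.00 between SmoA2 mutants and Wildtype, with 4 called lower and 0 higher. Those 4, named after their values were seen, were Fam180a beside Slc13a4 (-1.33, adjusted p = 0.00142), Foxf2 beside Foxc1 (-0.36, adjusted p = 0.0185), Zfp474 beside Lox (-0.88, adjusted p = 0.0428) and Slc6a12, the betaine transporter beside Slc6a13 (-0.88 ± 0.18, adjusted p = 0.0341). Slc22a8, organic anion transporter 3, adjacent to Slc22a6, differed by -0.31 with no call (adjusted p = 0.295).

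Genes outside the list with like roles were read from the same fit, leaving out the members. Of 28 other genes known from meningeal fibroblasts 8 were called lower in SmoA2 mutants against Wildtype and 0 higher, with a median of -0.26, and 1 of the 8, Ranbp3l, lay within the background range in every group. The smallest p belonged to Aldh1a2, the retinoic acid synthesising enzyme of meninges, at 7.83, 8.30 and 7.59 in SmoA2 mutants and 9.45, 9.39 and 9.39 in Smo/Smo mutants, against 9.60, 9.34 and 9.48 in Wildtype. SmoA2 mutants lay below all other arrays (-1.57 ± 0.15 against Wildtype, adjusted p = 0.00114, and -1.51 ± 0.15 against Smo/Smo mutants, adjusted p = 0.00186). Next came Gjb2, connexin 26, at -0.83 ± 0.12 (adjusted p = 0.00701) and Bmp6, a bone morphogenetic protein, at -0.44 ± 0.09 (adjusted p = 0.0293). In 23 of the 28 the difference was below 0. Bmp5 went furthest the other way (0.93), at 9.77, 9.68 and 9.28 in SmoA2 mutants against 8.58, 8.51 and 8.86 in Wildtype. It was not called over all arrays, and of the 9 fits without 1 array only in that without Smo/Smo replicate 2. Against Smo/Smo mutants 4 of the 28 were lower, led by Aldh1a2, Gjb2 (-0.66, adjusted p = 0.0227) and the tight junction protein Cldn11 (-0.39, adjusted p = 0.0319). Smo/Smo mutants against Wildtype gave 0 calls in limma, with 6 of 28 at an unadjusted p under 0.05 and the smallest p for Emp1 (-0.25, adjusted p = 0.281). The median between Smo/Smo mutants and Wildtype was -0.12, with 23 of 28 differences below 0. In the transporter list of 20, 6 were lower in SmoA2 mutants than in Wildtype, among them the lactate transporter Slc16a1 (-0.35 ± 0.06, adjusted p = 0.0188), the dicarboxylate transporter Slc13a3 (-0.40 ± 0.07, adjusted p = 0.0201) and Slc6a12, and 3 were lower than in Smo/Smo mutants, Slco1c1 (-0.39), Slc16a1 (-0.44) and Slc22a4 (-0.43). When 1 array was left out, the 8 meningeal fibroblast genes lower than in Wildtype became 11 without SmoA2 replicate 2 and 2 or 3 without any other array, and the 6 transporters became 4 without SmoA2 replicate 2, 0 without Wildtype replicate 2 or 3 and 2 or 3 without any other. Aldh1a2 and Gjb2 against Wildtype, and Aldh1a2, Slco1c1 and Slc16a1 against Smo/Smo mutants, were called in all 9 of these fits.

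Matrix genes outside the members gave calls in both directions. The 17 other collagen chains had a median of 0.13 between SmoA2 mutants and Wildtype, with Col27a1, a fibrillar chain of cartilage, higher (0.58 ± 0.07, adjusted p = 0.00295) and Col13a1, a transmembrane collagen, lower (-0.42 ± 0.08, adjusted p = 0.0227, and -0.40 against Smo/Smo mutants). Col8a1 measured 7.03, 6.81 and 7.04 in Smo/Smo mutants, against 6.29, 6.03 and 4.69 in Wildtype. Without Wildtype replicate 3 it was called higher in Smo/Smo mutants against Wildtype and lower in SmoA2 than in Smo/Smo mutants. With all arrays it was not called. Among 21 genes of collagen folding, processing and crosslinking, Adamts14, a procollagen N-propeptidase, measured 9.25, 9.05 and 9.23 in SmoA2 mutants and 8.07, 8.10 and 8.15 in Smo/Smo mutants, against 7.53, 7.42 and 7.40 in Wildtype. It was 3.30-fold higher in SmoA2 mutants (1.72 ± 0.07, adjusted p = 9.71e-06) and 1.58-fold higher in Smo/Smo mutants (0.66 ± 0.07, adjusted p = 0.00603), each against Wildtype, and differed between the mutants by 1.07 (adjusted p = 0.000182). Adamts3, of the same enzyme family, was lower in SmoA2 mutants against Wildtype (-0.57 ± 0.07, adjusted p = 0.00444) and against Smo/Smo mutants (-0.62, adjusted p = 0.00349), Loxl1, a lysyl oxidase of elastic fibres, was higher against Wildtype (0.41 ± 0.09, adjusted p = 0.0426), and Tnxb, tenascin X, was lower against Smo/Smo mutants (-0.53, adjusted p = 0.0345).

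In the elastic fibre list of 10, Hmcn1 and Efemp1 were lower in SmoA2 mutants than in Wildtype (-0.44 each, adjusted p = 0.0239 and 0.0359). None of 8 other leucine-rich repeat genes was called in limma in any comparison, and 4 of them, Chad among these, lay within the background range in every group, with 0 at an unadjusted p under 0.05 between SmoA2 mutants and Wildtype (smallest p for Chad, 0.12, adjusted p = 0.448). Of 13 matrix turnover genes, the metalloproteinase inhibitor Timp3 was lower in SmoA2 mutants (-0.54 ± 0.08, adjusted p = 0.00703, and -0.43 against Smo/Smo mutants), and the membrane metalloproteinase Mmp14 was lower in Smo/Smo mutants (-0.49 ± 0.07, adjusted p = 0.0239), each against Wildtype. Between the mutants Mmp14 was higher in SmoA2 (0.36 ± 0.07, adjusted p = 0.0317). Of 12 genes of the TGF-beta list, Tgfbi, a matrix protein induced by TGF-beta, was higher in SmoA2 mutants (0.85 ± 0.10, adjusted p = 0.00319) and in Smo/Smo mutants (0.65 ± 0.10, adjusted p = 0.0393), each against Wildtype, and the median of the list was -0.04 in SmoA2 mutants and 0.03 in Smo/Smo mutants. Among these matrix and TGF-beta genes, the calls on Adamts14 in each comparison, on Adamts3 in both of its own, and on Col27a1, Timp3 and Tgfbi in SmoA2 mutants against Wildtype held in all 9 fits without 1 array, and every other call was lost in some.

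Markers of other cells moved with the members in part. The 7 border macrophage genes averaged 6.61 to 6.77 in SmoA2 mutants and 6.97 to 7.04 in Smo/Smo mutants, against 7.08 to 7.11 in Wildtype, with 3 called lower in SmoA2 mutants. Lyve1, a hyaluronan receptor, measured 6.52, 6.55 and 6.49 in SmoA2 mutants and 7.36, 7.46 and 7.42 in Smo/Smo mutants, against 7.46, 7.42 and 7.41 in Wildtype (-0.91 ± 0.05 against Wildtype, adjusted p = 5.52e-05). The mannose receptor Mrc1 and the coagulation factor chain F13a1 differed by -0.72 ± 0.07 and -0.74 ± 0.10 (adjusted p = 0.000957 and 0.00557). These 3 calls held in all 9 fits without 1 array, as did those on Lyve1 (-0.89, adjusted p = 8.7e-05) and Mrc1 (-0.64, adjusted p = 0.00215) against Smo/Smo mutants. The 11 endothelial genes averaged 9.14 to 9.18 in SmoA2 mutants and 9.37 to 9.47 in Smo/Smo mutants, against 9.23 to 9.30 in Wildtype, and the receptors Tek (-0.29 ± 0.05, adjusted p = 0.0267) and Kdr (-0.30 ± 0.06, adjusted p = 0.0401) were lower in SmoA2 mutants than in Wildtype, with a median of -0.07 over the 11. Of the 9 fits without 1 array, Tek was called in 2, without SmoA2 replicate 3 or Smo/Smo replicate 1, and Kdr in 0. Against Smo/Smo mutants all 11 endothelial genes had a difference below 0, with a median of -0.31 beside the -0.25 of the members, 8 at an unadjusted p under 0.05 and 3 called lower, namely Tek (-0.36, adjusted p = 0.0113), Kdr (-0.36, adjusted p = 0.0198) and the tight junction protein Cldn5 (-0.32, adjusted p = 0.0478). The part of these cells in the members' differences was not tested.

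The 10 mural cell genes averaged 7.25 to 7.40 in SmoA2 mutants and 7.32 to 7.41 in Smo/Smo mutants, against 7.27 to 7.34 in Wildtype, with 0 calls in limma and 3 at an unadjusted p under 0.05 between SmoA2 mutants and Wildtype (smallest p for Anpep, -0.30, adjusted p = 0.18). Bone and cartilage genes, 10 measured, averaged 5.07 to 5.33 on every array, and 7 of them lay within the background range in every group. There were 0 calls, and 1 unadjusted p under 0.05 between SmoA2 mutants and Wildtype (Ibsp, -0.44, adjusted p = 0.297). Skeletal muscle genes, 9 measured, averaged 6.07 to 6.12 in SmoA2 mutants, 6.04 to 6.17 in Smo/Smo mutants and 6.11 to 6.25 in Wildtype, with 1 call, Myh8, lower in Smo/Smo mutants than in Wildtype (-0.67, adjusted p = 0.0435). The 3 erythrocyte genes averaged 5.41 to 5.83 in SmoA2 mutants, 5.61 to 5.92 in Smo/Smo mutants and 5.70 to 5.80 in Wildtype, with 0 calls and 0 at an unadjusted p under 0.05 between SmoA2 mutants and Wildtype (Alas2, -0.33, adjusted p = 0.465).

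Genes of the choroid plexus epithelium had higher means in both mutants than in Wildtype, and their calls turned on 1 array. The 11 genes averaged 9.01 to 9.26 in SmoA2 mutants and 9.30 to 9.57 in Smo/Smo mutants, against 6.26 to 8.54 in Wildtype. Their median difference against Wildtype was 1.43 in SmoA2 mutants and 1.72 in Smo/Smo mutants, with 0 calls in limma in either and 10 and 9 of 11 at an unadjusted p under 0.05 (Cldn2, 1.63, adjusted p = 0.0538, and Calml4, 1.37, adjusted p = 0.133). The low mean is that of Wildtype replicate 3. Without it the medians were 0.66 in SmoA2 mutants and 0.99 in Smo/Smo mutants against Wildtype, with 6 and 8 of 11 called higher, led in both by Sostdc1, a secreted inhibitor of Wnt and BMP signals (0.70 in SmoA2 mutants and 1.05 in Smo/Smo mutants, adjusted p = 0.00694 and 0.00219). Ttr, transthyretin, differed by 0.51 and 0.75 in that fit (adjusted p = 0.0247 and 0.0129). The part of choroid plexus RNA in the members' differences was not tested. Slc13a4 measured 8.74 on Wildtype replicate 3, beside 9.18 and 9.16 on the other Wildtype arrays. Ptgds, which choroid plexus also makes, measured 12.86 on that array, beside 12.79 and 12.83 on the other Wildtype arrays, and missed the threshold in the fit without it (adjusted p = 0.0961). In that fit Slc22a6, Msln, Slc6a13, Tbx18, Lox and Fbln2 stayed called between SmoA2 mutants and Wildtype, and Col1a1, Col1a2, Fmod, Itih2, Foxc1 and Foxd1 did not (0.0614 to 0.105), nor did Fbln2 in Smo/Smo mutants (0.0892).

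**Figure D4:**
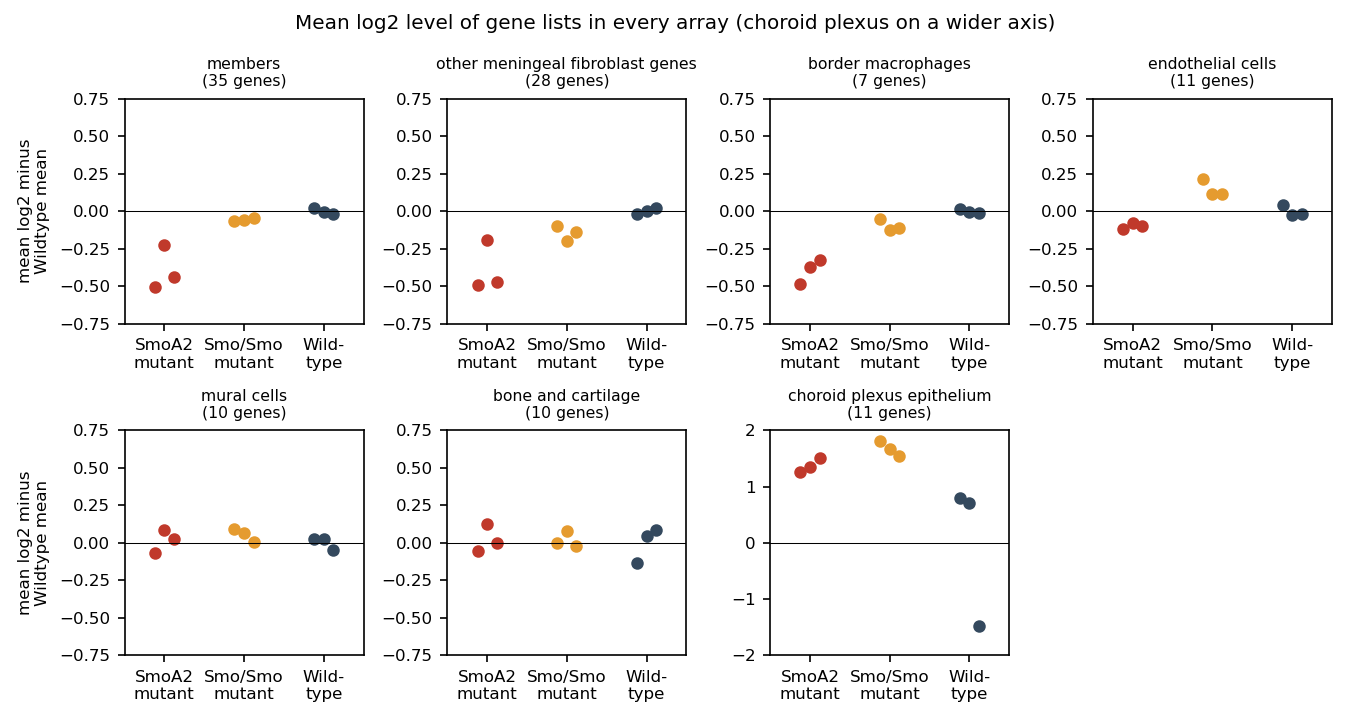
Points are arrays. The y axis is the mean log2 value of a gene list minus its Wildtype mean, and the choroid plexus panel has a wider axis. Members, border macrophage genes and endothelial genes are lower in every SmoA2 array than in all others, and endothelial genes are highest in Smo/Smo mutants. Other meningeal fibroblast genes lie below Wildtype in both mutants, which overlap each other. Mural, bone and cartilage genes overlap between groups, and Wildtype replicate 3 is low for choroid plexus.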

How the data were processed

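Total RNA of 9 mice, from cerebellum by the design text and brain by the labels, was measured on 1 Affymetrix array each. The deposited values are probe set intensity on a linear scale, summarised with RMA per the submitters' processing notes, which give no version, and the log2 of each was taken here. Of 38385 probe sets, 24478 carried 1 gene symbol in the platform annotation, 65 several and 13842 none, and 1 probe set, that of the highest average log2, was kept for each of 19147 genes. Group means were fitted over all 9 arrays with limma 3.58.1 (lmFit and eBayes, R 4.3.3), without a covariate, and p-values were adjusted by the Benjamini-Hochberg method over all genes. The fit was checked on simulated data. Differences are log2, the first-named group minus the second, ± SE, and folds are ratios of geometric mean intensity. Replicate numbers follow accession order and only name arrays.

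Members, gene lists and naming rule were chosen with earlier results of these data known, so no list was tested as a set. Every array value is given for members called in any comparison and for Col1a1, Col1a2, Col3a1, Dcn, Slc22a6, Slc6a13, Foxc1 and Ptgds. From each of 16 other lists (200 of 220 entries measured) up to 3 called genes with the smallest p per comparison were named, or else the single smallest. Promoters and gene order are from RefSeq on GRCm38.p6. Alternatives were the mean of all probe sets, only genes with a group mean log2 of 6 or more, quantile normalization, median centring, an intensity trend with robust prior, array weights, only the 2 groups compared, sex (read from Xist and genes of the Y chromosome) as a covariate, an adjusted p under 0.01, and leaving out arrays. Plots used matplotlib 3.10.9 and Python 3.11.15.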

Additional observations from a re-analysis of the deposited data

Results flagged for a closer look

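In 7 members the differences of the 2 mutant lines from their shared Wildtype arrays were unequal by the direct test of SmoA2 against Smo/Smo mutants. Msln differed by -1.46 between SmoA2 and Smo/Smo mutants, from -1.36 in SmoA2 mutants and 0.10 in Smo/Smo mutants against Wildtype. For Slc22a6 the difference between the lines was -1.13, from -1.42 in SmoA2 mutants and -0.29 in Smo/Smo mutants against Wildtype. For Slc6a13 it was -0.91, from -1.05 and -0.14. Tbx18 gave -0.60, from -0.66 and -0.06, Foxc1 gave -0.47, from -0.47 and -0.01, and Itih2 gave -0.49, from -0.53 and -0.04. Islr gave -0.30, from -0.13 in SmoA2 mutants and 0.17 in Smo/Smo mutants, where the signs against Wildtype are opposite. SmoA2 and Smo/Smo animals also differ in the prefix of their codes, so the line and whatever the prefix marks cannot be told apart. Single arrays that stand apart were not sought by a rule, since each group has 3 arrays.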

How the results depend on the processing

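No direction of a called difference was reversed under any alternative run, but for most alternatives this outcome was fixed beforehand. Leaving out or weighting arrays could reverse none, since every called member had groups that did not overlap. The fit of only the 2 groups, the intensity trend with robust prior and the stricter threshold leave each difference unchanged. The count of members called lower in SmoA2 mutants against Wildtype, 12, was 5 in a fit of only the 2 groups compared, 4 at an adjusted p under 0.01, 4 to 14 when 1 array was left out, and 3 without Wildtype replicate 3 and SmoA2 replicate 3 together. It was 16 with an intensity trend and robust prior (Col3a1, Bgn, Fn1 and Foxc2 added), 15 with only genes of a group mean of 6 or more (Bgn, Fn1 and Foxc2 added), 13 with array weights (Bgn added), 10 with sex as a covariate and 12 with the mean of all probe sets, where Lox was lost and Thbs2 gained. Fbln2, the 1 member called higher in Smo/Smo mutants against Wildtype, was not called (0 members) after centring on array medians, in a fit of only the 2 groups, with sex as a covariate, at an adjusted p under 0.01 and without both replicates 3, and the count was 0 to 1 when 1 array was left out. The median of the members in that comparison was -0.09 to -0.04 over the same leave-outs. For SmoA2 against Smo/Smo mutants the 7 members called lower became 14 with only genes of a group mean of 6 or more, where fewer genes were tested, 13 with an intensity trend and robust prior, 4 with only the 2 groups, 3 at an adjusted p under 0.01, 4 to 13 when 1 array was left out and 3 without both replicates 3. These counts stand without the share of all genes called in the same fit, which can also change with the setting. A changed count is therefore no result about the members alone. Apart from fewer genes, fewer arrays or a stricter threshold, the cause was not tested. No paired analysis was possible because the animal codes pair no animals across groups and the replicate numbers only name the arrays. With 3 arrays per group, the intervals of members without a call often reach past the differences of called ones. A value within the background range, as for Msln in SmoA2 mutants, may understate a difference.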
